A study of Macaca mulatta with 6 samples.

Results

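Some neighbouring CCGG sites of the macaque genome lie at a few distances that recur far more often than others, as they would in a repeated sequence. The site pairs described here lie on chromosomes 1 to 20 at such distances, in 3 classes: a short class of 68 bp, a middle class of the 2 distances between 133 and 136 bp, and a long class of the 5 distances between 200 and 206 bp, bounds not included. They were chosen from the union of the positions listed in 2 deposited tables and from nothing else in them, so distances and listing are part of the choice and the signals are not. There were 27656 such pairs, 2.04% of the 1357032 neighbouring pairs on these chromosomes, and they held 55152 sites, 4.06% of 1357052. The controls were the 116099 neighbouring pairs, with 219012 sites, whose distance lay within 20 bp of these values; 2431 sites belonged to a pair of each kind.

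The libraries came from genomic DNA of the rhesus macaque, Macaca mulatta. One cell type was haploid embryonic stem cells (ESC), named parthenogenetic in the series title, that is, made from an unfertilized egg and so of maternal genome only, and the other was sperm. Each was profiled by HMST-Seq, which sequences tags beside CCGG sites after an HpaII, a BGT_MspI or an MspI digest, with 1 library for each of the 6 combinations. No treatment, age or strain, and no number of lines or animals, is given in the sources used here, and without replicates no value below has a replicate error or a test.

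Cytosine methylation at CpG decides which of these enzymes can cut. HpaII needs an unmodified CCGG, MspI tolerates methylated and hydroxymethylated cytosine at the inner position, and glucosylation shields hydroxymethylated sites from MspI. Interspersed repeats place copies of a short sequence across the genome, so the same restriction sites return at the same spacing. Alu elements, the abundant short interspersed repeats of primates, are rich in CpG; they are mostly methylated in somatic cells, and a portion of copies is known to lose methylation in the male germ line. Whether the pairs lie in Alu copies or in other repeats was not tested, since no genome sequence or repeat annotation of the tables' build was used here.

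For each cell type the authors' deposited table gives 3 distinct signals per site without column names. They are called here the first signal, the shared signal, which enters both of the table's comparisons, and the last signal. No column names a digest, so a high or low signal is not read as more or less methylation. The scale is the authors' own and the read depth behind it is unknown. The tables may have been normalized separately, so each cell type is described within its table and against its own controls. Comparisons between cell types assume that a column holds the same digest in both tables, and the tables do not say so.

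The name repeat-like rests on how often each distance occurred. At 68 bp there were 4487 pairs, 5.35 times the median of 839 at the distances within 20 bp. The middle class held 5984 pairs, 3.25 times its local level, and the long class 17185, 3.52 times, which made up 62.1% of all pairs. At the local medians the same distances would have held 7568.5 pairs in place of 27656. So an excess stood over a floor of pairs whose distance did not recur, and pairs of either kind cannot be told apart here. The first peak had a shoulder of 1417 pairs at 67 bp, 1.69 times the local median, and 991 pairs at 69 bp. The others also had shoulders outside the chosen distances. Around the middle class there were 1452 pairs at 133 bp, 2715 and 3269 at the 2 chosen distances and 1789 at 136 bp. Around the long class there were 1476 at 200 bp, then 3085, 4928, 4803, 2523 and 1846 at the 5 chosen distances in ascending order, and 1613 at 206 bp.

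**Figure D1:**
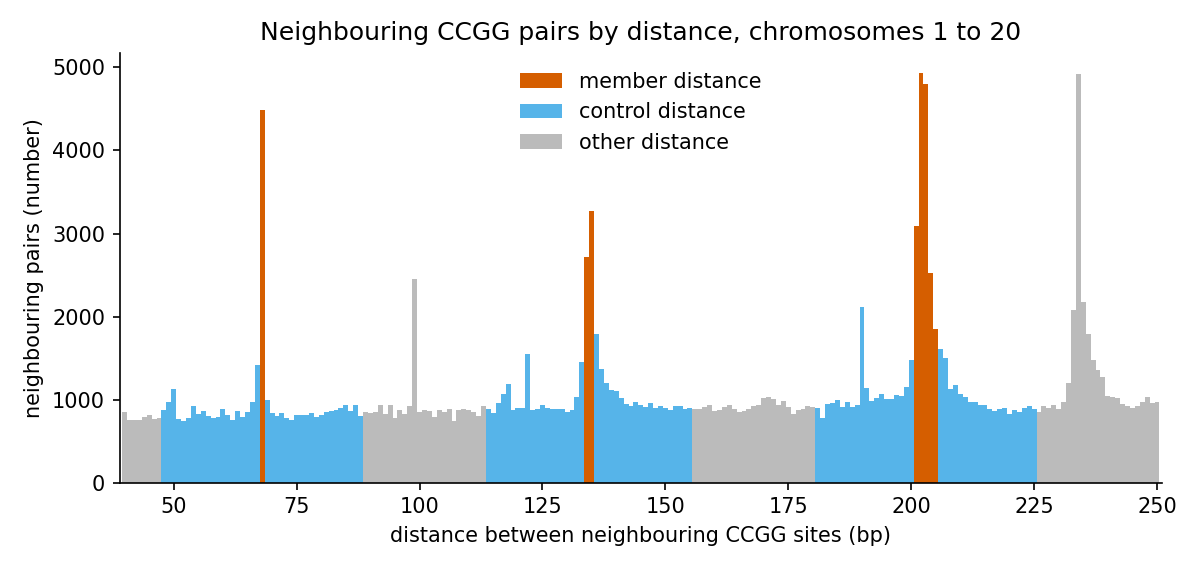
Number of neighbouring CCGG pairs (vertical axis) at each distance in bp (horizontal axis), from the positions of both tables on chromosomes 1 to 20. Chosen distances are orange, control distances blue and other distances grey; the tallest orange bar, in the long class, reaches 4928 pairs, and some control distances, such as 190 bp with 2117 pairs, recur as well.

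In haploid ESC, the first signal at these pairs reached high values less often than at the controls. At 52996 listed sites its lower quartile, median and upper quartile were 8.29, 16.2 and 28.2, against 9.80, 19.95 and 40.4 at 212127 control sites, with a median of 18.3 over all autosomal sites. The gap widened towards the top of the range, where the 95th percentile was 69.3 for the pairs and 133 for the controls. The shared and last signals were lower at the pairs too, with medians of 16.7 and 16.4 against 19.8 and 20.8, but there the 95th percentiles lay closer together, at 59.1 and 58.2 against 62.5 and 66.3. The 2 sets of sites overlapped over nearly the whole range of each signal.

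In sperm the first signal was the one in which the pairs kept up with their controls. Its quartiles at 50130 listed sites were 8.98, 17.3 and 49.9, against 9.05, 17.8 and 49.8 at 203252 control sites, and the 95th percentiles were 161 and 161. All autosomal sites had a lower median, 15.5. The direction of the small median difference was not stable: the pairs stood 0.46 below the controls as reported, but 0.37 above them in the short class taken alone. The shared and last signals were lower at the pairs, with medians of 14.96 and 14.4 against 19.4 and 19.5.

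A site was called high when its first signal lay in the upper 5% of all autosomal sites of its own table, above 102 in haploid ESC and above 145 in sperm. This measure was added after the values were seen. In haploid ESC 1448 of 52996 sites were high, 2.73% (95% Wilson interval 2.60% to 2.87%), against 8.75% of control sites. In sperm 3726 of 50130 were high, 7.43% (7.21% to 7.67%), against 7.41% of control sites. Sites at these pairs were thus under-represented among the high sites of haploid ESC, also relative to the 5% of all autosomal sites. In sperm they matched their controls at this cut. These intervals cover only counting error, and neighbours are not independent of each other. In sperm the upper 10% of the first signal held 15.5% of the sites against 16.5% of control sites, and the upper 1% held 1.04% against 1.30%. In haploid ESC these shares were 5.81% against 15.7% and 0.436% against 1.53%. In haploid ESC the upper 5% of the shared signal held 4.65% of the sites against 5.46% of control sites, and that of the last signal 4.39% against 6.42%, both smaller gaps than in the first signal. In sperm the shares were 4.94% against 6.91% in the shared and 4.86% against 7.75% in the last signal. There the pairs were near the 5% of all autosomal sites in these signals, and the controls lay above it. In the first signal both sets lay above the 5%.

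The short, middle and long class had 2.69%, 3.56% and 2.47% high sites in haploid ESC. Their own controls had 10.1%, 9.54% and 7.48%, so each class lay below its controls. The middle class had the highest share, with an interval (3.23% to 3.91%) above that of the long class (2.31% to 2.64%). In sperm the shares were 9.16%, 7.35% and 6.99% against 7.85%, 7.75% and 6.91%, a difference of 1.31 percentage points in the short class and of -0.40 in the middle class. Single distances in haploid ESC ran from 1.70% and 1.90% at the 2 commonest distances of the long class to 4.34% at its longest, the rarest of the distances chosen. Other recurring distances varied, with 1.88% at 234 bp, 3.73% at 190 bp, 5.10% at 99 bp, 5.70% at 122 bp and 6.41% at 67 bp in haploid ESC, so low shares were not particular to the chosen distances and not common to all that recur. In sperm 234, 190 and 99 bp had 9.13%, 12.9% and 9.28% high sites. These distances were picked out after their values were seen, and their difference from the chosen pairs was not tested.

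**Figure D2:**
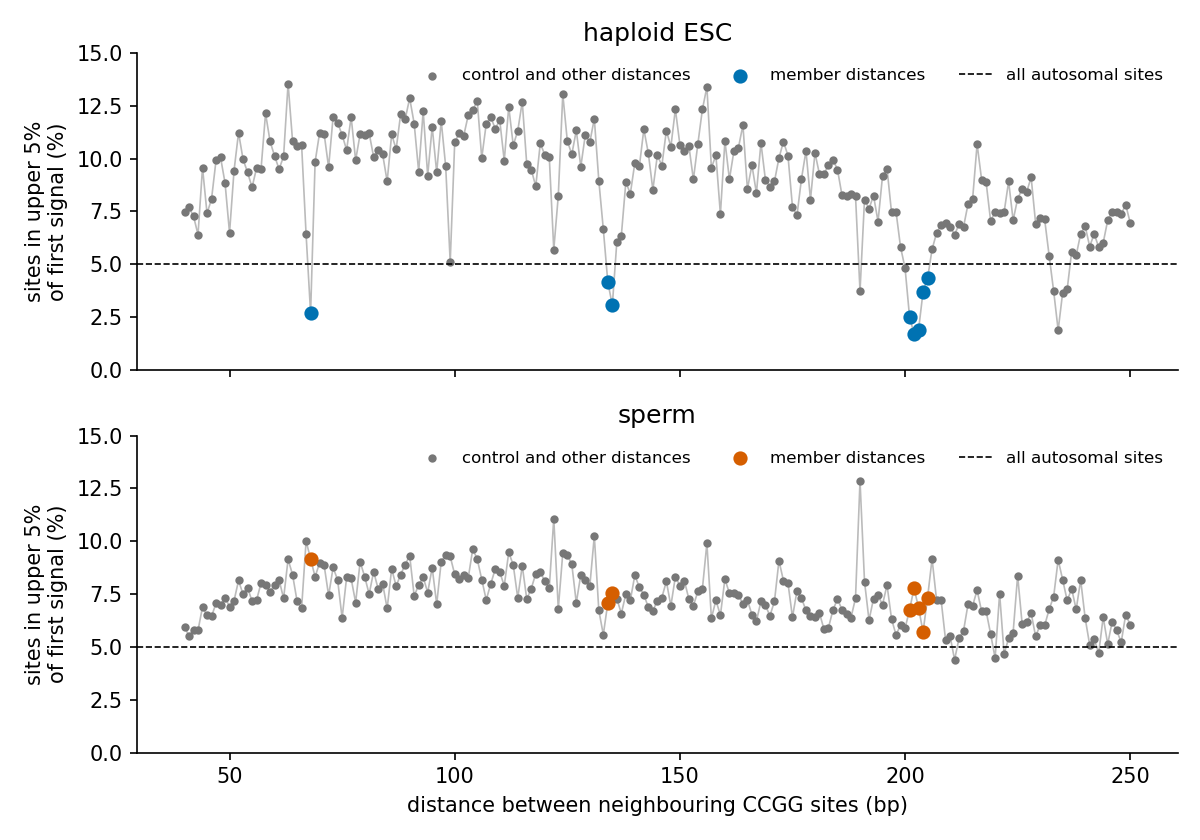
Percent of listed sites whose first signal lay in the upper 5% of autosomal sites of the same table (vertical axis), by the distance of the pair in bp (horizontal axis), for haploid ESC above and sperm below. Large coloured points are the chosen distances, small grey points all others, and the dashed line is the 5% of all autosomal sites; in haploid ESC the coloured points lie between 1.70% and 4.34%, and in sperm between 5.71% and 9.16%, all above the line.

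The balance of the first against the shared signal at a site was expressed as a contrast, log2 of the ratio of the 2 signals after adding 1 to each. In haploid ESC the median contrast was -0.04 at the pairs (95% interval of the median -0.06 to -0.03, counting error only) and 0.12 at the controls, a difference of -0.17. In sperm it was 0.24 (0.23 to 0.26) at the pairs and -0.01 at the controls, a difference of 0.26. All autosomal sites had medians of 0.03 and -0.03. Relative to the controls the pairs were therefore shifted towards the shared signal in haploid ESC and towards the first signal in sperm, by little compared with the spread among sites, whose quartiles were -0.92 and 0.86 in haploid ESC and -0.89 and 1.58 in sperm. The difference between the 2 shifts was not tested. With 10 added to each signal the differences were -0.11 and 0.15. With the controls weighted to the density of sites around the pairs, described further on, they were -0.07 and 0.29, so the one in haploid ESC shrank.

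By class, the median contrast in haploid ESC was -0.01 in the short, 0.05 in the middle and -0.08 in the long class, where the controls had 0.19, 0.08 and 0.08. The middle class differed from its controls by only -0.03. In sperm the classes had 0.33, 0.27 and 0.22 against 0.0047, -0.08 and -0.01, so each of the 3 lay above its controls. The contrast of the shared against the last signal was near 0 at the pairs, with medians of 0.02 in haploid ESC and 0.03 in sperm, against -0.05 and -0.03 at the controls.

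The shifts were seen chromosome by chromosome. In haploid ESC the median contrast of the pairs lay below that of the controls on 20 of 20 autosomes, by -0.32 on chromosome 14 to -0.01 on chromosome 19. In sperm it lay above the controls on 20 of 20, by 0.11 on chromosome 19 to 0.44 on chromosome 5. The share of high sites was lower than that of the controls on 20 of 20 autosomes in haploid ESC, with differences from -7.38 to -4.29 percentage points. In sperm that share was higher on 8 autosomes and lower on 12, from -2.97 points on chromosome 19 to 3.33 points on chromosome 17. On chromosome 5, 13.0% of the sites at these pairs were high in sperm and 1.74% in haploid ESC, and on chromosome 16 the shares were 3.06% and 3.59%. The chromosomes share libraries and are not replicates.

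**Figure D3:**
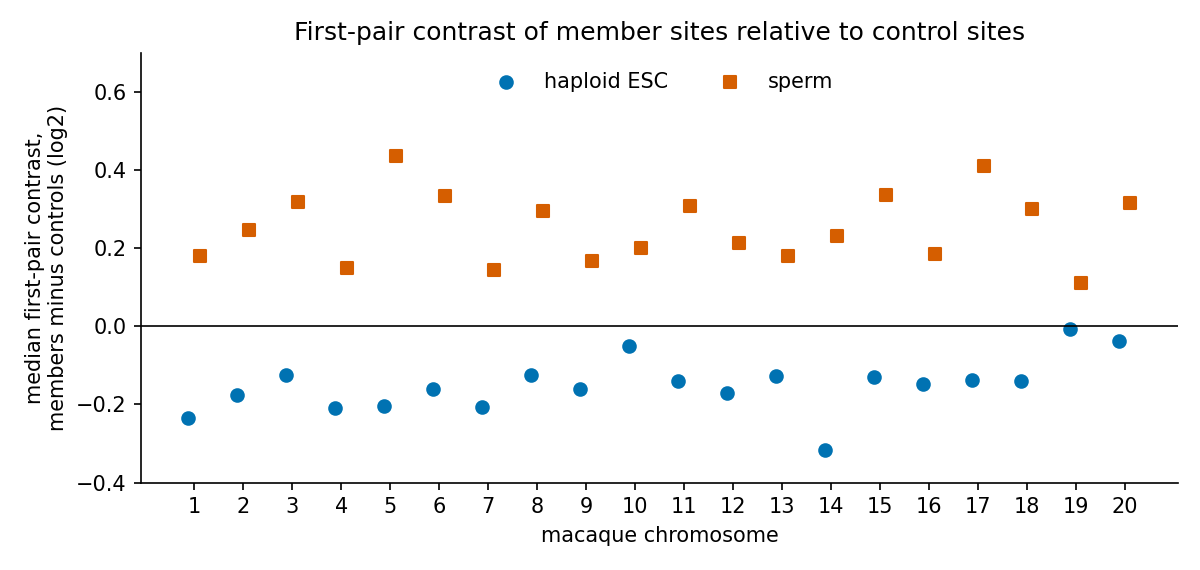
Median first-pair contrast (log2 of first over shared signal) of the site pairs minus that of the control sites (vertical axis) on each autosome (horizontal axis), for haploid ESC (blue circles) and sperm (orange squares). The 20 blue points lie below 0, from -0.32 to -0.01, and the 20 orange points above it, from 0.11 to 0.44.

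A site was counted as called where the column read as the authors' adjusted p was below 0.05 in the deposited tables. The threshold was set here, and direction was taken by comparing the first with the shared signal. In the authors' deposited table for haploid ESC the first comparison was called at 63.7% of the sites at these pairs. This compares with 71.2% of control sites and 66.8% of all autosomal sites. In that of sperm the shares were 70.8% and 74.4%, beside 69.7%. With direction, the first signal in the deposited haploid ESC table was called higher at 30.4% of the sites at these pairs. The share was 38.8% of control sites and 34.7% of all. In the deposited sperm table these shares were 41.2% and 37.8%, beside 34.6% of all. Counted without regard to direction, calls in both deposited tables were fewer at the pairs than at the controls. By direction this did not hold throughout. In the deposited sperm table the first signal was called higher more often at the pairs than at the controls. In that of haploid ESC it was called lower slightly more often at the pairs. In the deposited tables the first signal was called lower at 33.3% of the sites in haploid ESC, near the 32.2% of all autosomal sites and the 32.4% of control sites. In sperm it was called lower at 29.6%, against 35.1% of all and 36.7% of control sites in the deposited table. The second comparison of the deposited tables was called at 10.9% in haploid ESC, against 13.2% of control sites and 11.1% of all. In the deposited sperm table it was called at 7.57%, against 10.5% of control sites and 7.86% of all. In both the pairs were near the share of all autosomal sites and below their controls.

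At 47974 sites of these pairs both tables gave values. The first signal was high in sperm alone at 6.45% of them, in haploid ESC alone at 1.87% and in both at 1.13%. Among 196367 control sites the order was different, with 3.73% high in sperm alone, 5.56% in haploid ESC alone and 3.83% in both. Over all 1215827 autosomal sites with values in both tables the shares were 2.98%, 3.29% and 2.10%. A contrast above 0 in sperm alone was seen at 19.3% of the sites of the pairs and 12.4% of control sites, beside 13.3% of all. In haploid ESC alone it was seen at 13.3% and 16.8%, beside 16.3% of all. Ranks of the first signal in both tables were less alike at the pairs (Spearman's rho 0.43 over the 47974 sites) than at the controls (0.56), while those of the shared signal were about as alike (0.77 and 0.78). These correlations are descriptions, since the sites share libraries and depth.

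Whole pairs followed the same pattern. Of 21172 pairs with both sites in both tables, 593 (2.80%, 95% Wilson interval 2.59% to 3.03%) were high at both sites in sperm and at neither in haploid ESC. Among 93992 control pairs this state held for 1.24%. The opposite state, high at both sites in haploid ESC alone, held for 0.66% of the pairs and 2.03% of control pairs, and 68 pairs (0.32%) were high at both sites in both tables, against 1.46% of control pairs. The short class held the highest share of pairs high in sperm alone, 143 of 3459 (4.13%, 3.52% to 4.85%), against 2.33% in the middle and 2.61% in the long class. Their own control pairs had 1.09%, 1.20% and 1.40%. The shares over all neighbouring autosomal pairs were not computed, so these states are set against control pairs only.

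Examples of pairs high in sperm alone, chosen after their values were seen, show how far the deposited first signals can part. At a 68 bp pair on chromosome 19, 38714896 to 38714964, the authors' deposited first signals were 13.3 and 4.68 in haploid ESC and 184 and 183 in sperm. The deposited shared signals at these sites stayed low, at 5.22 and 0.847 in haploid ESC and 1.70 and 3.31 in sperm. At a long-class pair on chromosome 2, 146218101 to 146218303, the deposited first signals were 25.1 and 11.6 in haploid ESC and 213 and 158 in sperm. Pairs nearer the middle of this group also carried shared signal: on chromosome 2, 34266661 to 34266729, the deposited first signals were 6.62 and 11.0 in haploid ESC and 243 and 153 in sperm, with shared signals of 20.7 and 33.2, and 31.5 and 46.9. Positions are as the tables give them, and genes at these places are not analysed here.

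The partners of a pair resembled each other in the first signal, and less so in haploid ESC than the partners of control pairs. Spearman's rho between the left and the right site was 0.37 over 25599 pairs in haploid ESC against 0.54 over 109094 control pairs, and 0.62 over 23008 pairs in sperm against 0.62 over 100440. For the contrast it was 0.32 against 0.51 in haploid ESC and 0.53 against 0.55 in sperm. The shared signal of partners was weakly related in each set, with rho of 0.07 and 0.13 in haploid ESC and 0.15 and 0.20 in sperm. Partners share a library and a neighbourhood, so these values carry no test. The left and right sites had similar medians of the first signal, 15.8 and 15.9 in haploid ESC and 16.7 and 17.2 in sperm in the long class.

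The pairs lay in sparser surroundings than their controls. Sites of these pairs had a median of 2 other CCGG sites within 1 kb, against 3 for control sites and 1 for all autosomal sites, and 42.8% of them had only 1, against 22.7% of control sites. Among sites with only 1 other site within 1 kb, 0.744% were high in haploid ESC against 3.55% of control sites, and 8.68% were high in sperm against 6.61%. At 4 or 5 other sites the shares were 8.07% and 12.7% in haploid ESC and 6.62% and 8.36% in sperm. The share of high sites in haploid ESC was thus below that of the controls in each density class, and in sperm the order of pairs and controls changed with density. Weighting the controls to the density of the pairs left a contrast difference of -0.07 in haploid ESC, in place of -0.17, and of 0.29 in sperm. The difference in high sites became -4.05 percentage points in haploid ESC and 0.37 in sperm. This weighting was added after the data were seen, and what remains after it was not tested.

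**Figure D4:**
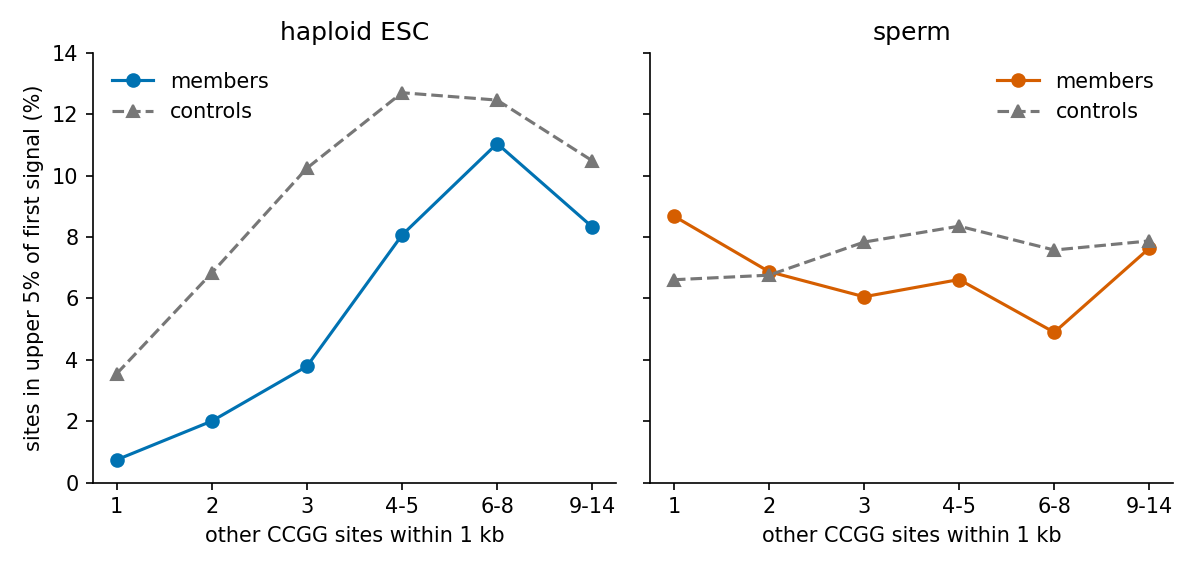
Percent of sites whose first signal lay in the upper 5% of autosomal sites of the same table (vertical axis), by the number of other CCGG sites within 1 kb (horizontal axis), for the site pairs (solid, circles) and control sites (dashed, triangles). In haploid ESC, left, the pairs lie below the controls in each class, from 0.744% against 3.55% at 1 other site; in sperm, right, they lie above at 1 other site, 8.68% against 6.61%, and below at 3 or more.

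Listing differed little. Of the 55152 sites, 87.0% were in both tables, 9.11% in haploid ESC only and 3.91% in sperm only, against 89.7%, 7.20% and 3.14% of control sites. Over all autosomal sites the shares were 89.6%, 7.53% and 2.88%. Why a site is missing from a table was not tested, and since the choice of pairs used the union of both tables these shares are partly set by it.

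Pairs seldom followed each other. There were 27338 runs of a single pair, 156 of 2 pairs in a row and 2 of 3 pairs. Among the 2-step orders, 56 joined 2 long-class pairs, 24 put a middle-class pair before a short one and 20 put it after. The last 2 orders make triplets whose whole span equals one of the 2 commonest long-class distances, and 28 of these 44 triplets had their 3 sites in both tables. In haploid ESC the middle site of a triplet had a median first signal of 9.04, against 13.2 and 12.1 at the outer sites on the middle-class and the short-class side. In sperm the medians were 14.3, 11.4 and 13.2. There were 37 to 42 listed sites per place. Pooled over the places, first signals ran from 1.002 to 166 in haploid ESC and from 2.72 to 161 in sperm. The ranges of the places overlapped, though not over their whole length. In haploid ESC the highest values were 166 on the middle-class side, 80.7 at the middle site and 39.96 on the short-class side.

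Single triplets varied widely. Those given here were picked after their values were seen, from the 12 that a rule on total signal named. On chromosome 4, 110836652 to 110836854, the authors' deposited first signals of the 3 sites were 13.6, 3.31 and 11.6 in haploid ESC and 154, 120 and 143 in sperm. The site at 110836854 had a deposited shared signal of 6.68 in haploid ESC and 4.99 in sperm. On chromosome 5, 47112722 to 47112924, the deposited first signals were 16.4, 42.0 and 17.7 in haploid ESC and 129, 115 and 84.2 in sperm. The reverse was seen on chromosome 11, 116327044 to 116327246, with deposited first signals of 42.5, 11.4 and 11.6 in haploid ESC and 16.1, 2.99 and 2.72 in sperm. Of the 28 complete triplets, 4 had the higher first signal in the sperm table at each of their 3 sites, 10 at 2 sites, 10 at 1 site and 4 at none, with each table on its own scale. By percentile within each table the counts were 6, 9, 11 and 2. A triplet on chromosome 3, 11948644 to 11948846, was mixed, with deposited first signals of 4.98, 15.2 and 166 in haploid ESC and 98.1, 117 and 115 in sperm. On chromosome 13, 22107955 to 22108158, a triplet near the median of total signal was low in both, with 10.9, 6.59 and 1.55 in haploid ESC and 16.8, 6.14 and 6.11 in sperm in the deposited tables.

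The 2 runs of 3 pairs also differed from each other, and they and the run of short-class pairs are the first 3 of the 10 that the rule named. On chromosome 13, 66711125 to 66711733, 4 sites at long-class steps had deposited first signals of 94.0, 116, 73.5 and 93.8 in haploid ESC and 108, 130, 99.2 and 117 in sperm, with the first signal above the shared one at each site in both. On chromosome 7, 44202344 to 44202957, the steps were of the same class and the deposited first signals were 80.9, 14.7, 42.5 and 21.7 in haploid ESC and 36.5, 71.5, 49.9 and 72.1 in sperm. The single run of 2 short-class pairs, on chromosome 10 from 93259859 to 93259995, had low deposited first signals, 3.18, 1.60 and 1.60 in haploid ESC and 6.02 and 8.69 at the 2 sites listed in sperm, beside shared signals of up to 37.9 and 97.5.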

How the data were processed

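QIAamp-extracted DNA was sequenced as single-end 50 bp HMST-Seq reads, per the labels' protocols. The authors deposited 1 table per cell type, with 10 columns and no header. Columns 3, 4, 7 and 8 were read as signals and taken as a score of the authors' own scale; columns 4 and 7 were equal in 100% of rows, which leaves 3 distinct signals. The other columns were read as the authors' p-value and adjusted p-value of each comparison, in deposited order; that of the second comparison reaches 1.03 and was treated as a score. The sources used here do not state this reading, nor the aligner, counting, filters, treatment of reads from repeats or depth. A human build, hg19, stands in the submitters' processing notes, while the tables name macaque chromosomes, so positions carry no build.

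Sites of both tables were joined on chromosomes 1 to 20 and sorted, and distances were taken between neighbours; the short class is 68 bp, the middle class 134 and 135 bp and the long class 201, 202, 203, 204 and 205 bp. Contrasts used a pseudocount of 1. Medians have rank-based and shares have Wilson 95% intervals (scipy 1.17.1, pandas 2.3.3). The pairing was tested on simulated data. Site pairs, controls and measures were chosen with earlier results of these data known. A rule named the 10 runs with most pairs, shorter spans first, and, for each order of the distances of a triplet, the 3 with the highest total signal and the 3 nearest the median. The first 3 runs are printed, and 5 triplets picked from the 12 after their values were seen. Alternatives were other pseudocounts, control widths, distance sets and thresholds, with density weighting, other tail sizes and control distances added after the data were seen.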

Additional observations from a re-analysis of the deposited data

Results flagged for a closer look

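The difference in median first-pair contrast between the site pairs and their controls had opposite signs in the 2 cell types: -0.17 in haploid ESC, with 20 of 20 autosomes below 0, and 0.26 in sperm, with 20 of 20 autosomes above 0. With the controls weighted to the density of the pairs the differences were -0.07 and 0.29, and in the middle class alone -0.03 and 0.35. Whether the cell types differ was not tested, since each digest had 1 library, and it assumes that the columns of both tables hold the same digests.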

How the results depend on the processing

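Over 21 results (members minus controls) and 249 values under alternatives, 12 had the sign opposite to the one reported, and these concerned 3 results in sperm: the median first signal, the upper-5% share and the likeness of the first signal. The last 2 were near 0 as reported, within counting error; the likeness, -0.0024, ranged from -0.017 to 0.021. The median first signal of -0.46 became 0.37 in the short class, 0.31 without low values and 0.078 with controls weighted for density. The first-pair contrast, -0.17 in haploid ESC and 0.26 in sperm, became -0.073 and 0.29 with density weighting, -0.20 and 0.31 without low values, -0.15 and 0.30 with the core distances alone (the long class cut to its 2 commonest distances), and -0.11 and 0.15 with a pseudocount of 10. It was -0.20 and 0.33 in the short class and -0.030 and 0.35 in the middle class. It was -0.14 in haploid ESC with chromosomes weighted equally and -0.14 with controls within 10 bp, and in sperm 0.29 without recurring control distances and 0.23 in the long class. The upper-5% share, -6.02 and 0.018 points, became -4.05 and 0.37 with density weighting, -6.26 and 0.33 with the core distances, and -7.44 and 1.31 in the short class. In haploid ESC it was -6.59 without recurring control distances, -6.40 with sites in both tables, -5.004 in the long class and -6.35 without sites of both kinds of pair. In sperm it was -0.59 with chromosomes weighted equally and -0.40 in the middle class. The difference was -1.10 and -0.26 points for the upper 1% and -9.91 and -0.94 for the upper 10%. All autosomal sites hold about 1% and 10% there, so these points are not on the scale of the upper 5%. The likeness of the contrast, -0.19 in haploid ESC, became -0.18 by Pearson, -0.14 with density weighting, -0.16 in the middle class, -0.14 in the long class, -0.26 in the short class, -0.21 with a pseudocount of 10 and -0.22 without sites of both kinds of pair; in sperm -0.022 became -0.00091 with density weighting. First-pair calls, -7.50 and -3.67 points, became -5.71 and -2.65 with density weighting, -6.83 and -4.56 in the middle class and -9.14 and -2.96 in the short class, and in haploid ESC -8.11 without recurring control distances and -11.1 at an adjusted p below 0.001. Listing in both tables, -2.68 points, became -2.13 with density weighting, -3.19 in the middle class and -2.20 in the short class. The cause of these changes was not tested. No paired analysis was possible because each digest had 1 library, and no library could be left out. The depth behind the signals is unknown.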

Other observations

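Chromosome X was outside the choice of pairs and held 1135 pairs at the same distances. In haploid ESC the median first-pair contrast of their sites was -0.14, against 0.11 at X control sites, and 2.45% of them lay above the autosomal upper-5% value of the first signal (95% Wilson interval 1.88% to 3.18%), against 10.8% of X controls. In sperm the contrast was 0.91 at the pairs and 0.91 at the controls, with 4.70% and 5.02% above that value. The autosomal shift of the contrast in sperm relative to controls was thus not seen on X. The median shared signal in sperm was lower on X, 8.29 at the pairs and 10.3 at the controls, against 14.96 and 19.4 on the autosomes. The autosomal upper-5% value was applied to X unchanged. Whether the lower shared signal bears on the contrast was not tested. Over all X sites the median contrast was -0.14 in haploid ESC and 0.41 in sperm. Of these sites 4.68% and 3.15% lay above the autosomal upper-5% value. The difference between X and the autosomes was not tested.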
